A study of Mus musculus with 16 samples.

Results

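The genes described here encode nuclear subunits of respiratory complex I, the NADH:ubiquinone oxidoreductase of the inner mitochondrial membrane. They were chosen by their annotated symbol, Nduf followed by a, b, c, s or v and a number, which found 32 of the 17097 named genes on the array. These genes carry 59 probe sets, and for each gene the probe set with the highest mean over all arrays was read. Transcript levels were measured on Affymetrix mouse arrays in lungs and heart of 3 mice lacking NM1 (knockout, KO) and of 3 wild-type (WT) mice, and in skin fibroblasts from 2 KO and 2 WT mice with other mouse numbers. Lungs and heart came from the same mice, KO 1602, 1603 and 1586 and WT 1592, 1624 and 1593, and the fibroblasts were KO 1584 and 1550 and WT 1571 and 1623. No treatment is named for any group. NM1 (nuclear myosin 1) is encoded by Myo1c, alongside the other isoforms of that gene, and the series asks what its loss changes in tissues that express it strongly. The sources used here name neither the part of Myo1c that was removed nor the age, sex and strain of the mice.

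Complex I takes electrons from NADH, passes them along a chain of iron-sulfur clusters to ubiquinone and pumps protons out of the matrix. Its matrix arm holds the NADH and ubiquinone sites, and its membrane arm holds the proton channels, whose central subunits are encoded by mitochondrial DNA and are not among these genes. The nuclear genes encode the remaining catalytic core subunits and a shell of accessory subunits that hold the enzyme together. Heart muscle, which contracts without pause, is packed with mitochondria, whereas lungs and cultured fibroblasts hold fewer.

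The 32 genes comprised 6 core subunits (Ndufv1, Ndufv2, Ndufs1, Ndufs3, Ndufs7 and Ndufs8), 9 accessory subunits of the matrix arm and 16 of the membrane arm. The last gene, Ndufa4, was first described as a complex I subunit and is now counted with complex IV. Genes with further letters in the symbol are given apart, as is Ndufab1, the mitochondrial acyl carrier protein that is also a complex I subunit. The genes lie on 14 chromosomes, so they share no single locus.

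Promoter letters were examined because the genes moved together between tissues. RefSeq promoters of assembly GRCm38.p6, from 250 bases before to 50 bases after the start site, were at hand for 29 of the 32 genes, and Ndufa2, Ndufb9 and Ndufs1 had none. The letters GCGCANGCG, bound by the nuclear respiratory factor NRF1, were found on either strand in 7 of 29 promoters (24.1%), against 6.47% of all 27025 promoters of the same length. With a C required after them the shares were 6 of 29 (20.7%) and 4.78%. They occurred in Ndufb4 (in 3 copies), Ndufs6, Ndufa8, Ndufa11, Ndufa5, Ndufa6 and Ndufb10, at positions from -191 to 25 relative to the start. Upstream stretches of the 4 genes with at least 1 whole copy in the 120 bases before the start are printed, with the NRF1 letters in capitals. They read 5′ to 3′ on the gene's strand and end at the last base before the start site, at chr16:37654369-37654578 (minus strand) for Ndufb4, chr13:73328483-73328602 (minus strand) for Ndufs6, chr2:36049339-36049458 (minus strand) for Ndufa8 and chr17:56717642-56717761 (plus strand) for Ndufa11.
Ndufb4: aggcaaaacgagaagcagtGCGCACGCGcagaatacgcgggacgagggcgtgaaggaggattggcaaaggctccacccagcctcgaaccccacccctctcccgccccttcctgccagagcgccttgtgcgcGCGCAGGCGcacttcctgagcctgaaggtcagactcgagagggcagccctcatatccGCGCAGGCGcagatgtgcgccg
Ndufs6: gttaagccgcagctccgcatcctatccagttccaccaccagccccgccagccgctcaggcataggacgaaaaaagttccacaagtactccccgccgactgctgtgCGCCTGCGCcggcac
Ndufa8: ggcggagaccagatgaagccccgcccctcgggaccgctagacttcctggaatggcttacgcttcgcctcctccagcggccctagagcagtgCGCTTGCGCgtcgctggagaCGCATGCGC
Ndufa11: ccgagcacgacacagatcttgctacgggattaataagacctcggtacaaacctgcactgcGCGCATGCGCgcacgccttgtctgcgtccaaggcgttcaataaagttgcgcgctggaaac

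The copies begin at -191, -79 and -22 in Ndufb4, at -15 in Ndufs6, at -29 and -9 in Ndufa8, and at -60 and -59 in Ndufa11, where copies on opposite strands overlap. The YY1 letters AAGATGGCG were found in 5 of 29 promoters (17.2%), against 1.49% of all promoters, in Ndufa9, Ndufc1, Ndufs4, Ndufs6 and Ndufs7 (with a G required after them, 4 of 29 and 0.90%). All 5 copies lay after the start site, at positions 23 to 36, and these letters contain an ATG. The Sp factor letters GGGCGG were present in 12 of 29 (41.4%, against 35.91%) and the ETS letters CCGGAAG in 3 of 29 (10.3%, against 9.12%). The estrogen-related receptor letters CAAGGTCA were in 0 of 29 windows, against 1.53% of all. All motifs were searched on both strands, and the only overlap between copies of different motifs was an Sp and an ETS match in Ndufs3. A match describes letters in the window and was not tested as a binding site.

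Some facts of the series bear on the results. The Myo1c transcript was lower in every KO than in every WT sample of each tissue, with means of its 4 probe sets of 6.31 to 7.09 against 7.55 to 8.35 log2 in lungs. The sources do not say whether these probe sets lie in the removed part. Markers matched the labels, with lung markers at mean log2 signals of 11.9 to 12.2 in lungs and 3.14 to 4.36 elsewhere. Heart muscle markers, which do not separate ventricle from atrium, lay at 12.8 to 13.3 in heart and 3.19 to 3.32 in fibroblasts. Fibroblast markers lay at 9.41 to 10.1 in fibroblasts and 6.44 to 7.60 in the organs. Lungs also held heart muscle transcripts, with list means from 4.44 to 9.01. The heart of KO 1602 stood apart from the others, with an upper quartile over all probe sets of 5.63 log2 against 6.17 to 6.31.

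All 32 complex I genes were measured well above the filter for low values, set at 3.79 log2, in every tissue. Their log2 signals ran from 8.01 to 11.71 in lungs, from 8.19 to 11.36 in fibroblasts and from 10.98 to 13.1 in heart. Signals of different probe sets are not levels that can be ranked between genes, so only differences between samples are compared. The within-group SD of the genes had a median of 0.083 in heart and 0.061 in fibroblasts, against 0.286 and 0.154 over all kept probe sets. In lungs the median SD was 0.201, close to the 0.231 of all kept probe sets. The genes were thus steady between hearts and between fibroblast samples, and varied more from lung to lung.

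**Figure D1:**
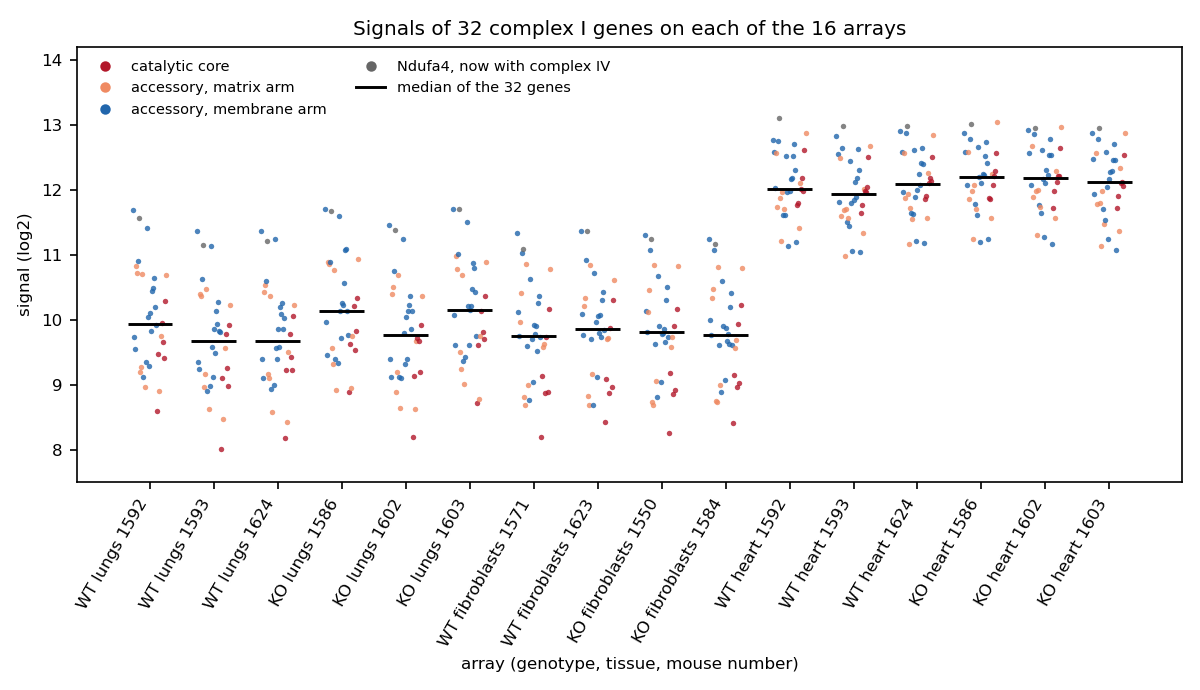
Log2 signal of each of the 32 complex I genes (points, coloured by role) on each of the 16 arrays, with the median of the genes as a bar; arrays are named by genotype, tissue and mouse number. The medians of the 6 heart arrays lie above those of all other arrays, with genes from 10.98 to 13.1, and among lungs the arrays KO 1586, KO 1603 and WT 1592 have the highest medians (10.14, 10.14 and 9.93).

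In wild-type mice every complex I gene was higher in heart than in lungs. The median excess over the 32 genes was 2.32 log2, or 5-fold, and single genes ranged from 1.19 to 3.49. All 32 passed limma's test (adjusted p at most 2.28e-06), where 25.4% of all kept probe sets were called higher in heart. The median over all kept probe sets was -0.18, so most other transcripts lay the other way. In bulk tissue, fewer mitochondria-rich cells and less transcript per cell cannot be told apart.

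Ndufs1, the largest core subunit, which carries iron-sulfur clusters, had the widest gap. Its log2 signals were 11.76, 11.86 and 11.64 in the WT hearts 1592, 1624 and 1593, and 8.59, 8.18 and 8.01 in the lungs of the same mice. The difference of 3.49 (SE 0.18, adjusted p = 1.71e-09 in limma) far exceeded the spread in either tissue. Heart and lungs did not overlap for any of the 32 genes, where 29.8% of all kept probe sets were higher without overlap. Ndufv1, the subunit that binds NADH and the flavin, had 11.99, 12.14 and 12.05 in heart against 9.41, 9.23 and 8.98 in lungs, a difference of 2.85 (SE 0.16, adjusted p = 3.31e-09). The iron-sulfur subunits Ndufs8 and Ndufv2 were higher by 2.67 and 2.46, Ndufs3, of the ubiquinone-reducing module, by 2.55, and Ndufs7, which carries the last cluster before ubiquinone, by 2.20. The median over the 6 core genes was 2.61.

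Accessory genes of the matrix arm had a median of 2.42 and those of the membrane arm 2.18. The difference between the roles was not tested. Of the matrix arm, Ndufa9, which sits near the ubiquinone site and binds a nucleotide, was higher in heart by 2.88 (SE 0.13) and Ndufs4, needed for a stable NADH-binding module, by 2.84 (SE 0.14). Of the membrane arm, Ndufa10, which resembles a nucleoside kinase, had 12.58, 12.59 and 12.55 in the WT hearts against 9.73, 9.39 and 9.35 in the lungs. Its difference of 3.08 (SE 0.16, adjusted p = 1.64e-09) was the largest among accessory genes.

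The smallest differences were those of Ndufa2, a small subunit with a thioredoxin fold (1.19, SE 0.13), Ndufc2 of the membrane arm (1.22, SE 0.12), the X-linked Ndufb11 (1.26, SE 0.12), Ndufa7 of the matrix arm (1.28, SE 0.11) and the X-linked Ndufa1 (1.36, SE 0.11). Even for Ndufa2 the groups did not overlap, with 11.73, 11.87 and 11.59 in heart against 10.72, 10.53 and 10.36 in lungs. The genes whose promoters are printed were not at either end, with differences of 2.00 for Ndufb4, 2.52 for Ndufs6, 2.61 for Ndufa8 and 2.64 for Ndufa11. Ndufa4 had a difference of 1.71 (SE 0.13, adjusted p = 8.86e-08).

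The comparison of heart with fibroblasts gave the same picture at another order of genes. All 32 were higher in WT heart than in WT fibroblasts (27.7% of all kept probe sets were), with a median of 2.25 log2, or 4.74-fold, and a range of 0.95 to 3.44. Both comparisons use the same 3 WT hearts, so they are not independent. The core genes again had the highest median, 2.92, against 2.43 for the matrix arm and 2.06 for the membrane arm. Ndufs1 had the largest difference (3.44, SE 0.20), followed by Ndufs7 (3.17, SE 0.14), Ndufv1 (3.14, SE 0.18), Ndufa5, an accessory subunit of the matrix arm (3.02, SE 0.18), and Ndufb10 of the membrane arm (2.84, SE 0.14). The smallest were Ndufa7 (0.95, SE 0.13), Ndufc2 (1.35, SE 0.14), Ndufa2 (1.35, SE 0.14), Ndufa1 (1.48, SE 0.13) and Ndufa3 (1.78, SE 0.13). Ndufs7 had 12.01, 12.10 and 11.99 in the WT hearts against 8.87 in both WT fibroblast samples. Ndufa7 had 11.97, 11.72 and 11.70 against 10.86 and 10.84, and groups did not overlap for any of the 32 genes, where 34.6% of all kept probe sets were higher without overlap.

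**Figure D2:**
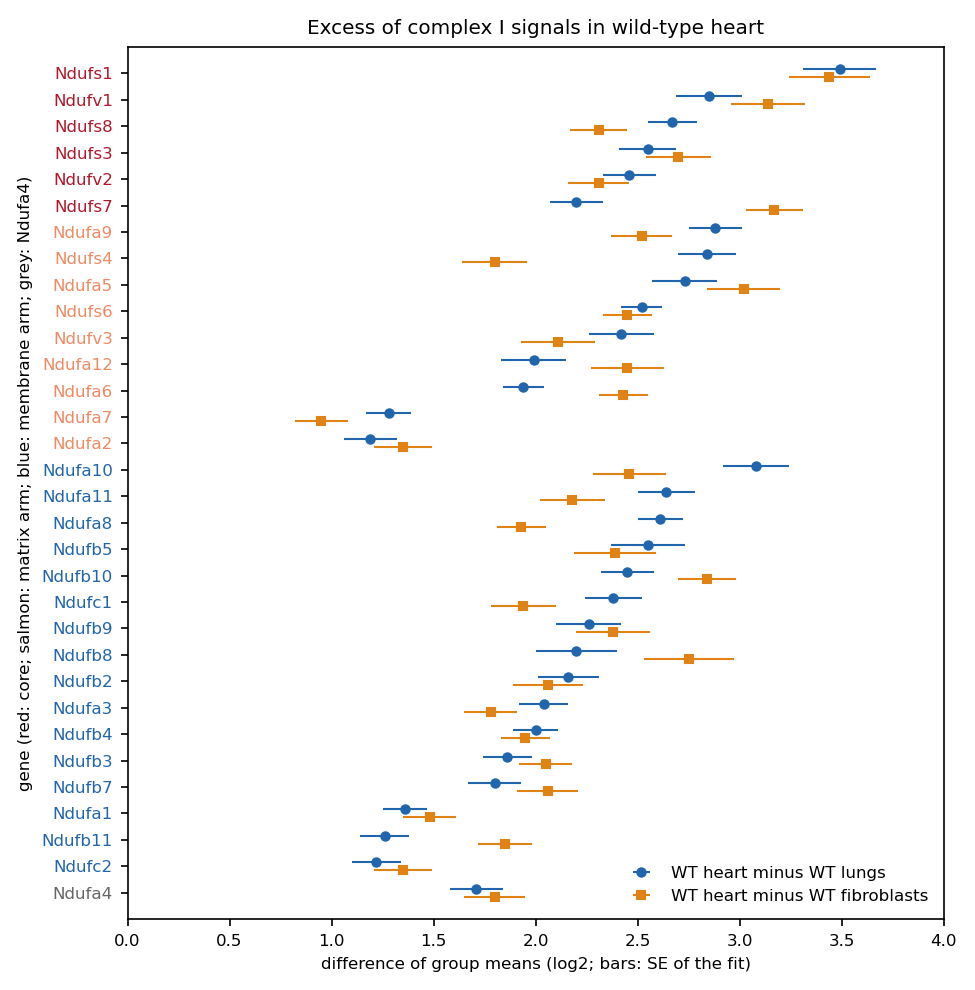
Difference of group means on the log2 scale between WT heart and WT lungs (circles) and between WT heart and WT fibroblasts (squares) for each gene, ordered by role and then by the difference from lungs, with the standard error of the limma fit as bars. Every point lies above 0, from 0.95 for Ndufa7 to 3.49 for Ndufs1.

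The group means of the KO arrays, which share the fitted spread with the WT comparisons, lay in the same direction. All 32 genes were higher in KO heart than in KO lungs (median 2.16; 25% of all kept probe sets were called higher) and than in KO fibroblasts (median 2.34; background 24.5%). Of the 27 further probe sets of these genes, 25 shared the sign of the chosen one in each WT heart comparison. One exception was a dim Ndufa12 probe set (mean 3.89 log2 over all arrays), at -1.10 against lungs and -1.34 against fibroblasts. The other was the second Ndufb8 probe set (mean 5.51), at -0.26 and -1.19. The chosen probe sets of Ndufa12, Ndufa2 and Ndufa3 are of a kind that can bind transcripts of related sequences.

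Genes around complex I were also higher in heart, from lists chosen with earlier results of these data known. Of all kept probe sets, 25.4% were called higher in WT heart than in WT lungs, and 8692 of 24947 lower. Against WT fibroblasts 27.7% were called higher, and 8907 of 24631 lower. All 18 measured complex I assembly factors were called higher in WT heart than in WT lungs (median 1.83), led by Ecsit (3.24) and Foxred1 (3.17). All 18 also lay above 0 against fibroblasts (median 1.41), where 17 were called higher. Of 25 genes of complexes II to IV, 23 were called higher and 1 lower in heart than in lungs (median 2.21), and the same counts held against fibroblasts (median 2.26). The gains were largest for the muscle forms Cox7a1 (5.85) and Cox8b (5.76), and the lower gene was Cox6a1 (-0.41), the form of that subunit outside muscle. Of 12 genes of mitochondrial mass, such as the inner membrane organiser Immt (2.93) and citrate synthase, Cs (2.73), 12 were higher than in lungs (median 1.93). Against fibroblasts 10 were called higher and Tomm20, an import receptor, was called lower (-0.34). Among 14 regulators, 10 were called higher and 3 lower in heart than in lungs. Perm1, a muscle regulator of mitochondrial genes, had 6.28 and the coactivator gene Ppargc1b had 4.59. Those called lower were Nrf1 (-1.13), Gabpb1, which encodes the beta subunit of the factor GABP (-0.70), and Yy1 (-0.65). Against fibroblasts 9 regulators were called higher and 2 lower, Pprc1 (-1.27) and Yy1 (-0.78).

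Of the genes set apart, Ndufab1 followed the subunits, higher in WT heart than in lungs by 2.92 and than in fibroblasts by 2.14. The 2 probe sets annotated to the pseudogene Ndufs5-ps had means of 11.68 in WT heart, 9.64 in lungs and 9.94 in fibroblasts, and cannot be told from the parent gene here. Ndufa4l2, a paralog of Ndufa4 known as a hypoxia-induced gene, had its highest mean in WT fibroblasts (7.95), against 5.95 in lungs and 5.54 in heart.

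Lungs and fibroblasts held the set as a whole at like levels. The median difference between WT lungs and WT fibroblasts was 0.02 log2, against -0.05 for all kept probe sets, with 16 genes on either side of 0. Single genes did differ, 6 higher in lungs and 7 higher in fibroblasts by limma, which is 13 of 32 where 60.1% of all kept probe sets were called (28.4% higher and 31.7% lower). After quantile normalization the calls were 6 higher and 3 lower. Of the 13 calls, 4 (Ndufs7, Ndufb11, Ndufa6 and Ndufa8) held under each of the 15 alternatives run for them, and the other 9 were lost in at least 1.

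Among core genes Ndufs7 was higher in lungs, with 9.95, 9.78 and 9.78 against 8.87 and 8.87 (difference 0.97, SE 0.14, adjusted p = 4.99e-05). Ndufs8 was lower in lungs by -0.36 (SE 0.14, adjusted p = 0.0367), with 9.65, 9.42 and 9.25 against 9.73 and 9.87. That call was lost in 9 of 15 alternatives, among them quantile normalization (adjusted p = 0.164 in limma), no filter (0.06) and 4 of the fits with 1 array left out. Of the other core genes, Ndufv1 had 0.29, Ndufs3 0.15, Ndufs1 -0.05 and Ndufv2 -0.14, and none of them was called. In the matrix arm, Ndufs4 had the widest gap of all 32 genes. Its signals were 8.90, 8.43 and 8.47 in lungs and 9.58 and 9.70 in fibroblasts, a difference of -1.04 (SE 0.16, adjusted p = 6.45e-05). A dimmer Ndufs4 probe set, with a mean of 5.21, had the opposite sign (0.43), and with the mean of the gene's probe sets the difference was -0.26 and not called (adjusted p = 0.106 in limma). Ndufa6, which binds the acyl carrier protein, and Ndufa12, which is related to an assembly factor, were higher in lungs by 0.49 (SE 0.12) and 0.46 (SE 0.18), and Ndufa7 was lower (-0.33, SE 0.13). The calls of Ndufa12 and Ndufa7 were lost in 7 and 8 of 15 alternatives.

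In the membrane arm, Ndufa8, on the intermembrane face, had 9.12, 8.93 and 8.90 in lungs against 9.60 and 9.70 in fibroblasts (difference -0.67, SE 0.12, adjusted p = 3.36e-04). Ndufa10 (-0.62, SE 0.18), Ndufa11 (-0.46, SE 0.16) and Ndufc1 (-0.44, SE 0.16) were lower in lungs as well. Ndufb11 (0.59, SE 0.13), Ndufb8 (0.55, SE 0.22) and Ndufb10 (0.38, SE 0.14) were higher in lungs, with Ndufb11 at 11.41, 11.24 and 11.14 against 10.63 and 10.72. The call of Ndufb8 was lost in 7 of 15 alternatives and that of Ndufb10 in 4, and those of Ndufc1, Ndufa11 and Ndufa10 in 7, 6 and 1. For Ndufb8 the second probe set had the opposite sign here (-0.93), as did a dim Ndufa11 probe set (mean 3.13, 0.25). The other Ndufb11 probe sets, with means of 11.44 and 11.03, had 0.48 and 0.08. Of the further probe sets of the 32 genes, 18 of 27 shared the sign of the chosen one. The assembly factors had a lower median in lungs than in fibroblasts (-0.63, with 2 of 18 called higher and 11 lower, led by Tmem70 at -1.92). So did the mitochondrial mass genes (-0.53, with 0 called higher and 9 lower of 12, led by Hspa9 at -1.62). Of all kept probe sets, 28.4% were called higher in lungs and 31.7% lower.

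The KO arrays gave 17 calls between lungs and fibroblasts, 14 higher and 3 lower in lungs, with a median of 0.25 (65.2% of all kept probe sets were called). KO lungs 1603 and 1586 had higher means of the 32 genes (10.15 and 10.17) than KO 1602 (9.80). The KO comparison was not run without them. Calls in both genotypes were shared by 9 genes, all in the same direction. By the chosen probe sets, Ndufs7, Ndufb11, Ndufb8, Ndufa6, Ndufa12 and Ndufb10 were higher in lungs in both. Ndufs4, Ndufa8 and Ndufa11 were higher in fibroblasts in both. The calls leaned on single arrays. Without WT lungs 1624 there were 8 calls and without WT fibroblasts 1571 or 1623 there were 6 each, the remaining lone fibroblast sample being assumed to vary like the other groups. In the WT comparison, leaving out lungs 1592, 1603 and 1586, which held adipocyte transcripts, gave 14 calls, 4 higher and 10 lower.

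**Figure D3:**
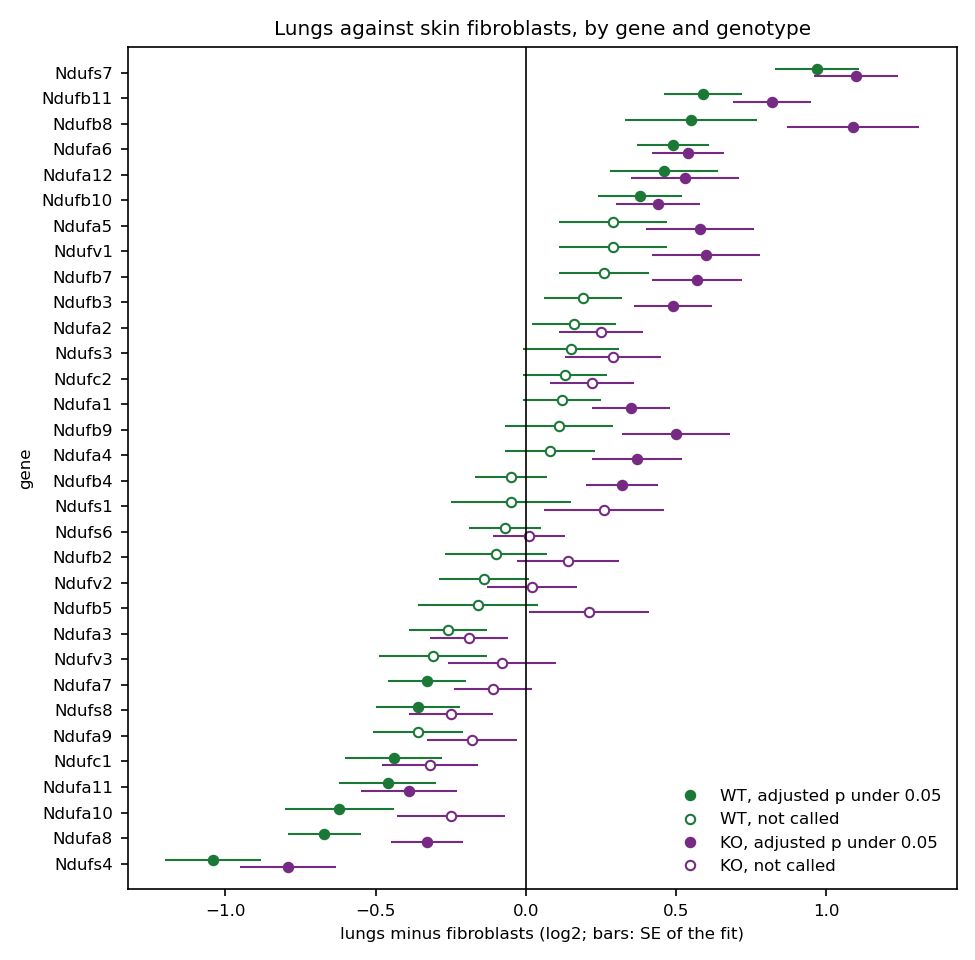
Difference between lungs and fibroblasts on the log2 scale for each gene in WT (green) and KO (purple) samples, with the standard error of the limma fit as bars and filled circles where the adjusted p was under 0.05. Genes run from Ndufs7 (0.97 in WT), higher in lungs, to Ndufs4 (-1.04 in WT), higher in fibroblasts.

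Loss of NM1 changed no complex I gene past the test in any tissue. In lungs 0 of 32 genes were called by limma, where 0.0301% of all kept probe sets were (7 of 23218), and the smallest adjusted p was 0.711. At an unadjusted p under 0.05 there were 6 genes, against 6.96% of all kept probe sets. The fitted spread is shared with heart and fibroblasts, where the genes varied less (median SD 0.083 and 0.061, against 0.201 in lungs). For Ndufb8 the fitted SE was 0.20, where the SD was 0.44 in KO and 0.29 in WT lungs. The SE and unadjusted p in lungs thus tend to look more precise than the spread of the lungs alone would allow. The changes leaned upward, with 31 genes above 0 and Ndufc2 below (-0.04), and a median of 0.19 log2, whereas 40% of all kept probe sets lay above 0, with a median of -0.06. With 1 array left out the median ran from 0.13 (without WT 1593) to 0.30 (without KO 1602). KO and WT lungs overlapped for every gene, while 5.08% of all kept probe sets were higher in KO without overlap. For the change from WT to KO, 21 of the 27 further probe sets shared the sign of the chosen one in lungs. In heart 22 did, and in fibroblasts 14.

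The 5 genes with the largest changes in lungs were Ndufb8 (0.55, SE 0.20, adjusted p = 0.711), Ndufv1 (0.37, SE 0.16), Ndufb9 of the membrane arm (0.36, SE 0.16), Ndufv3, a small subunit of the NADH-binding module (0.35, SE 0.16), and Ndufs1 (0.34, SE 0.18). Ndufb8, an integral subunit of the membrane arm, had 10.23, 10.87 and 11.08 in KO lungs 1602, 1603 and 1586, and 10.49, 10.09 and 9.94 in WT lungs 1592, 1624 and 1593. KO 1602 thus lay below WT 1592. For Ndufv1 the KO lungs had 9.19, 9.71 and 9.83 and the WT lungs 9.41, 9.23 and 8.98, with the same crossing. Ndufs1 had 8.19, 8.71 and 8.89 against 8.59, 8.18 and 8.01. The other core genes had changes of 0.12 for Ndufv2, 0.19 for Ndufs3, 0.19 for Ndufs7 and 0.23 for Ndufs8. Medians were 0.21 for the core, 0.18 for the matrix arm and 0.20 for the membrane arm.

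The lungs fell into a high and a low trio that cut across genotype. The mean over the 32 genes was 10.15 log2 in KO 1603, 10.17 in KO 1586 and 10.02 in WT 1592. The low trio had 9.80 (KO 1602), 9.74 (WT 1624) and 9.69 (WT 1593). For 29 of 32 genes the lungs of the high trio all lay above the other 3, which held for 10% of all kept probe sets. The trios are described here by the means of the same 32 genes, so this count describes the split and is no separate support for it. The 3 lungs of the high trio were also high in adipocyte and brown fat transcripts, 9 of 12 listed genes measured. Means of that list were 7.71 in KO 1603, 8.10 in KO 1586 and 6.65 in WT 1592, whereas KO 1602, WT 1624 and WT 1593 had 4.10, 4.38 and 4.28. The part of these transcripts in the result was not tested apart from that of the markers named next, which split the same lungs. The same 3 lungs were also the highest in heart muscle markers (8.14 to 9.01 against 4.44 to 6.54) and in atrial markers (7.80 to 8.28 against 6.56 to 7.61). Fibroblast markers were higher in them too (7.02 to 7.22 against 6.51 to 6.95), while erythroid (8.59 to 9.01 against 9.47 to 10.4) and macrophage markers (5.56 to 5.63 against 5.67 to 5.77) were lower. The brown fat gene Ucp1 had a change of 3.51 (SE 1.18) between KO and WT lungs, also not called (adjusted p = 0.711).

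With the adipocyte mean as a term in the model, the median change of the complex I genes in lungs was 0.07, with 29 genes above and 3 below 0. Without the 3 lungs it was 0.09, with 24 above and 8 below, in a comparison of 1 KO with 2 WT lungs. Adipocyte and heart muscle transcripts were high in the same 3 lungs, so neither comparison can tell them apart. Ndufb8 and the other leading genes had their smallest change without KO 1586 (0.38 for Ndufb8) and their largest without KO 1602 (0.80). Of the genes of complexes II to IV, all 25 lay above 0 in KO lungs (median 0.27), with Cox8b at 1.70 and Cox7a1 at 0.85, and 0 were called. Assembly factors lay evenly (9 above, 9 below, median 0.01, Ndufaf1 at -0.46 and Foxred1 at 0.33), and so did the regulators (6 and 6, median 0.01, Ppargc1b at 1.02 and Ppara at 0.69). Mitochondrial mass genes had a median of 0.10, with 10 of 12 above 0.

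**Figure D4:**
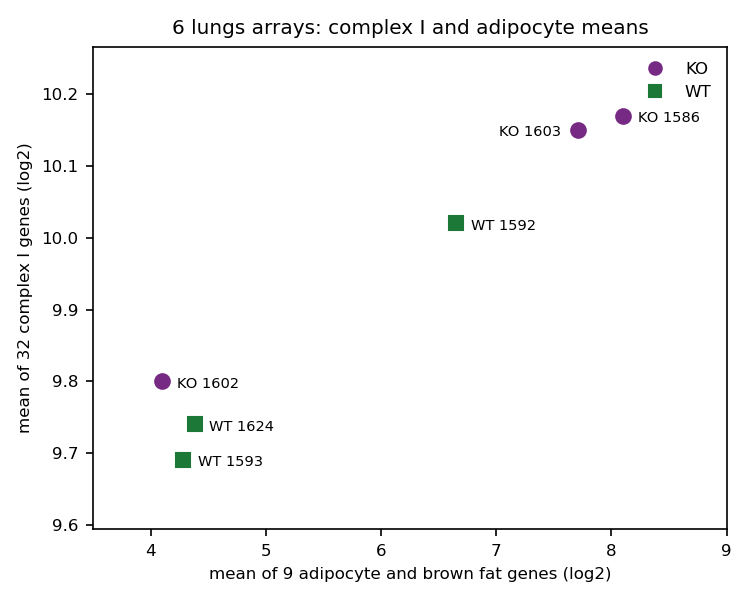
Mean log2 signal of the 32 complex I genes (vertical axis) against the mean of 9 adipocyte and brown fat genes (horizontal axis) on each lungs array, KO as circles and WT as squares, labelled by mouse. The arrays KO 1603, KO 1586 and WT 1592 lie apart on both axes, at 10.02 to 10.17 against 9.69 to 9.80 for complex I.

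In heart the genes lay slightly higher in KO, and 0 of 32 were called by limma (0.127% of all kept probe sets, 28 of 22098, smallest adjusted p 0.334). None reached an unadjusted p under 0.05, which 17% of all kept probe sets did. The fit shares 1 spread per probe set among the 6 groups. The genes varied more in lungs (median SD 0.201) than in heart (0.083). For Ndufb2 the fitted SE was 0.15, where the SD was 0.08 in KO and in WT hearts. The test was thus less sensitive to changes between hearts than the spread of the hearts alone would allow. A fit on the heart arrays alone also called 0 of 32 genes. The median was 0.09 log2 with 30 genes above 0, while 27.8% of all kept probe sets lay above 0, with a median of -0.16. With 1 array left out the median ran from 0.05 (without WT 1593) to 0.13 (without WT 1624). After quantile normalization the median of all moved to -0.02 and that of the complex I genes was 0.08. The 5 largest changes were those of Ndufb2 (0.26, SE 0.15), Ndufa7 (0.22, SE 0.11), Ndufb7 (0.20, SE 0.13), Ndufb4 (0.18, SE 0.11) and Ndufs6 (0.16, SE 0.10). All 6 core genes lay between 0.02 for Ndufs1 and 0.13 for Ndufv1.

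KO and WT hearts did not overlap for 9 of 32 genes, each higher in KO, where 3.91% of all kept probe sets were higher and 13.7% lower without overlap. These background shares depend on KO heart 1602 and were not computed without it. That heart was among the 3 highest of 6 for 18.3% of all kept probe sets, against 51.8% to 61.4% for the others. Among the complex I genes this held for 28 of 32. Ndufb2, a small subunit of the membrane arm, had 12.17, 12.05 and 12.20 in KO hearts 1602, 1603 and 1586 against 11.96, 11.89 and 11.80 in WT hearts 1592, 1624 and 1593. Ndufb4 had 12.11, 12.16 and 12.10 against 11.98, 12.00 and 11.84. Ndufs6, a zinc-binding subunit of the matrix arm, had 12.29, 12.33 and 12.25 against 12.11, 12.26 and 12.01, so WT 1624 lay above KO 1586. None of the 9 was called.

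KO hearts 1602 and 1586 had the highest signal of the 6 hearts for 16 and 9 of the 32 genes. These hearts were low in atrial transcripts (6 of 7 listed genes measured), with list means of 4.57 and 5.17 log2 against 8.58 in KO 1603 and 7.99 to 9.13 in WT. The part of this in the result was measured only by leaving them out, which compares 1 KO with 3 WT hearts. The median was then 0.05, with 23 genes above and 9 below 0, and 0 were called. Erythroid transcripts (2 of 4 listed genes measured) were also lower in KO hearts, with list means of 8.71 to 9.23 against 9.64 to 10.7 in WT. Fibroblast markers lay at 6.44 to 6.91 in KO and 6.92 to 7.60 in WT hearts, and macrophage transcripts lay at 5.25 to 5.72 against 5.83 to 5.90. Skeletal muscle transcripts overlapped, at 5.43 to 5.95 in KO and 5.49 to 5.59 in WT. Assembly factors had a median of 0.11 (15 of 18 above 0), complexes II to IV 0.07 (21 of 25 above 0), mitochondrial mass genes 0.07 (9 of 12) and regulators -0.09 (5 of 14), with 0 called in each list.

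In fibroblasts the genes were split evenly, 16 above and 16 below 0 (55.3% of all kept probe sets lay above 0), with a median of 0.00 and a range of -0.17 to 0.14. None was called (0.0549% of all kept probe sets were, 12 of 21841), the adjusted p was 1 for each, and 0 had an unadjusted p under 0.05, against 3.33% of all kept probe sets. The SE again rests on the spread shared by all 6 groups, while the median SD of the genes in fibroblasts was 0.061. A fit on the fibroblast arrays alone also called 0 genes. The largest changes were Ndufb7 (-0.17, SE 0.16), Ndufb4 (-0.16, SE 0.14), Ndufa12 (0.14, SE 0.20), Ndufc2 (-0.12, SE 0.15) and Ndufb10 (0.12, SE 0.15). For Ndufb4 the KO samples had 9.88 and 9.78 and the WT samples 9.92 and 10.05. The 2 samples per group did not overlap for 7 genes higher in KO (21.9%, against 19.5% of all kept probe sets) and 6 lower (18.8%, against 13%), shares near the background. Ndufb2, Ndufb4 and Ndufb7, among the leading genes in heart, had changes of 0.08, -0.16 and -0.17 here. Medians were 0.04 for assembly factors, 0.02 for complexes II to IV, 0.03 for regulators and 0.02 for mitochondrial mass genes, with 0 called in each list.

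**Figure D5:**
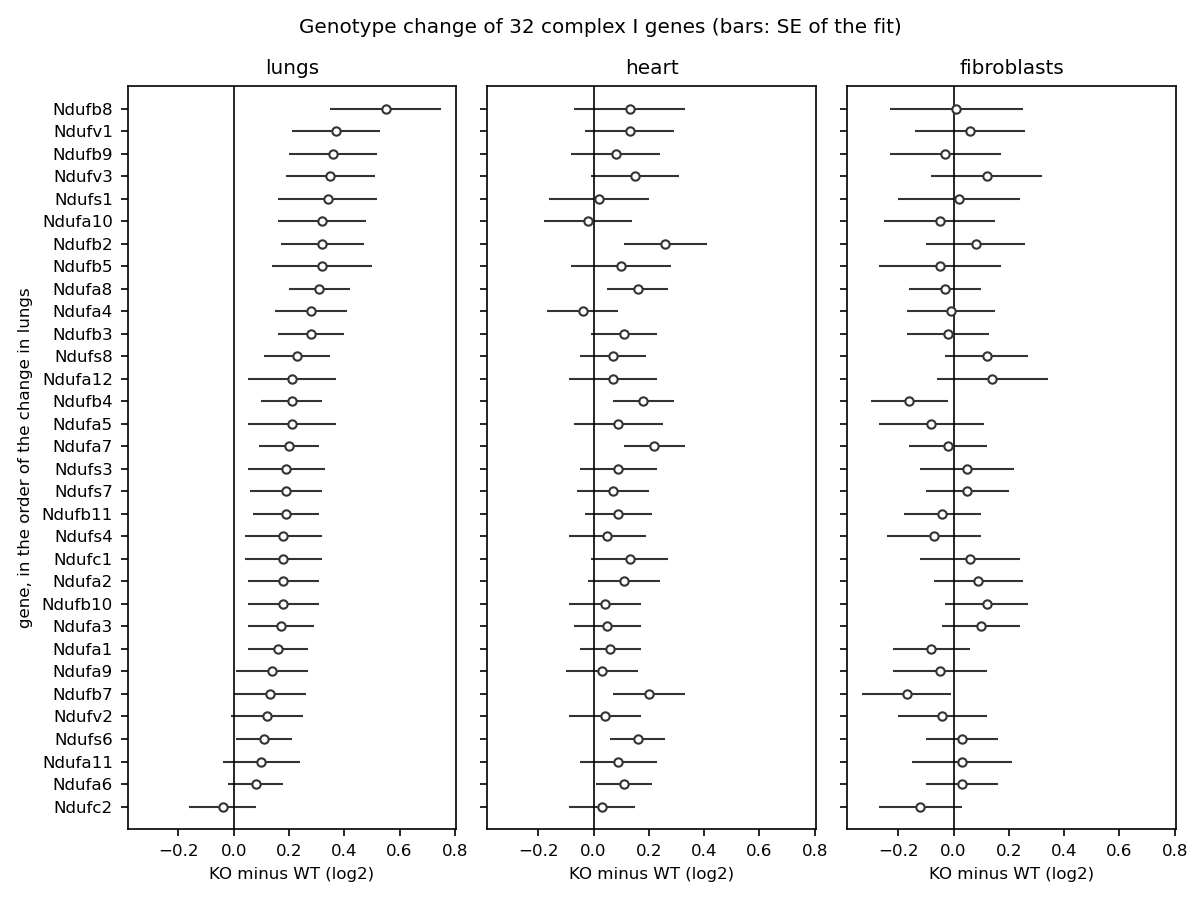
Change from WT to KO on the log2 scale for each gene in lungs, heart and fibroblasts, in the order of the change in lungs, with the standard error of the limma fit as bars. None of the changes was called; the points lie mostly above 0 in lungs (median 0.19) and heart (0.09) and on both sides of 0 in fibroblasts (0.00).

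The genotype change did not differ between tissues past the test for any of the 32 genes. Between lungs and heart the interaction had a median of 0.12 log2, against 0.11 over all kept probe sets, with 27 genes above 0 (63% of all kept probe sets were). In limma 0 genes were called and 0 of 24947 probe sets in all (0%), and the smallest adjusted p among the genes was 0.735. Between lungs and fibroblasts the median was 0.23 with all 32 genes above 0 (40.1% of all kept probe sets were), against a median of -0.08 over all, 0 genes called where 0.0197% of probe sets were, and a smallest adjusted p of 0.987. Between heart and fibroblasts the median was 0.08, against -0.18 over all, with 27 genes above 0 (29.8% of all) and 0 called where 0.0203% were. No gene had an unadjusted p under 0.05 in any of these comparisons, in which 7.22%, 4.37% and 7.77% of probe sets did. With the adipocyte mean as a term the median between lungs and heart was -0.06, and without the 3 lungs it was -0.03. Between lungs and fibroblasts the median was 0.05 with that term (21 genes above and 11 below 0) and 0.08 without the 3 lungs (23 above and 9 below). The comparisons share their samples and the fitted spread with those within each tissue.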

How the data were processed

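Each array's deposited log2 values hold 1 signal per probe set. The arrays were hybridised with biotin-labelled cRNA made from 6 ug of Trizol-extracted RNA, per the labels' protocols. Partek 6.4 is named in the submitters' processing notes. Background correction, summarisation and normalization: not given in the sources used here. After 104 control entries were set aside, 45037 probe sets were fitted with limma 3.58.1 in R 4.3.3, as 1 model of 6 group means over all 16 arrays (10 residual degrees of freedom). In each comparison, probe sets with a mean above 3.79 log2, the median of all values, in a compared tissue were kept, p-values were two-sided and Benjamini-Hochberg adjusted over them, and an adjusted p under 0.05 was called. Precision is limited by the number of arrays. The p-values measure the spread between samples pooled over the 6 groups, with lungs and heart of a mouse counted as separate samples.

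The genes, lists and tests were chosen with earlier results of these data known. Named are the 5 genes with the largest change in each KO against WT comparison, the 5 largest and 5 smallest tissue differences, the core subunits, genes with a discordant probe set, those with printed promoters and those called between lungs and fibroblasts, of which Ndufb10 and Ndufa7 were added after their values were seen. Of each list of other genes, the leading genes and those called against the majority are named, the latter after their values were seen. The mouse numbers pair lungs and heart of the same animal. The deviations of the 2 organs from their group means correlated across probe sets with r = 0.0472, 0.0404, 0.155, 0.0995, 0.169 and 0.0961. The fit was also run on simulated data with independent noise and 1 spread per probe set in all groups. That run could not test the unequal spread between tissues or the pairing of organs in these data. The NRF1 and YY1 letters were shortened by 1 base after a first search.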

Additional observations from a re-analysis of the deposited data

How the results depend on the processing

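Results were recomputed after quantile normalization, without the filter, with a filter at the 60th percentile, with the mean of a gene's probe sets, from the compared tissues alone, with a variance trend, with a replicate block, with an adipocyte term, without the 3 lungs or the 2 KO hearts named in the report, with KO arrays in place of WT and with each array left out. The settings with KO arrays and without the 2 hearts were chosen after seeing the data. Counts of called genes stayed within 1.5 times in 142 of 145 alternatives and medians within 1 SD between replicates in 135 of 145. Paired by mouse as a replicate block, the consensus correlation was 0.0542, the medians were 2.32 between WT heart and WT lungs and 0.12 for the genotype effect between lungs and heart, and no call changed.

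The exceptions among counts were the calls between WT lungs and WT fibroblasts, 6 to 13 with 1 array left out. The median between WT heart and WT lungs was 2.21 with the adipocyte term, 2.45 without the 3 lungs and 2.16 in KO arrays, and 2.26 to 2.45 with 1 array left out. That between WT heart and WT fibroblasts was 2.08 with the mean of probe sets and 2.34 in KO arrays, and that between WT lungs and WT fibroblasts 0.25 in KO arrays. The genotype effect had medians of -0.06 (adipocyte term) and -0.03 (without the 3 lungs) between lungs and heart, and 0.05 (adipocyte term) between lungs and fibroblasts. Single genes changed sign in 17 of 1126 alternatives, lost a call without changing sign in 49, all between WT lungs and WT fibroblasts, and gained one in 2 (Ndufv1 there, 0.41 with the adipocyte term and 0.60 in KO arrays). Between WT lungs and WT fibroblasts, Ndufs1 had 0.04 after quantile normalization, 0.09 with the adipocyte term, 0.26 in KO arrays and from -0.22 to 0.07 with 1 array left out. There, Ndufb8 had -0.19 and Ndufv2 0.09 with the mean of probe sets, and Ndufv2 0.02 in KO arrays. Between KO and WT lungs, Ndufv2 had -0.04 with the adipocyte term, and without the 3 lungs Ndufv2 had -0.06, Ndufs3 -0.03 and Ndufs7 -0.06. Between KO and WT hearts, Ndufs8 had -0.03 with the mean of probe sets and from 0 to 0.10 with 1 array left out. Ndufs1 had -0.03 without the 2 KO hearts, and from -0.03 to 0.08 with 1 array left out. The cause was not tested. Precision rests on 2 or 3 arrays per group, and the values carry no detection calls.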
